A study of Mus musculus with 11 samples.

Results

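The quadriceps is the large muscle at the front of the thigh and in mice is built mostly of fast fibres. This comparison set its 2 libraries labelled as Myc overexpression against its 2 control libraries, which are all the libraries labelled as quadriceps, 4 of the 11 in the series. The other 7 came from soleus. All 4 quadriceps libraries were from mice 2.5 months old. The Myc mice carried a tetracycline-controlled Myc, received doxycycline overnight and were sampled 12 hours after it was withdrawn, and the controls were matched to them in age. Whether the controls received doxycycline, which transgenes they carried and which promoter or cell type drove the Myc transgene are not given in the sources used here. No label says that libraries of a group came from separate animals, so every p-value measures the spread between these samples, which may be technical.

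Myc is a transcription factor that pairs with Max and binds DNA at a short palindrome, the E-box CACGTG. It is best known for raising the genes that build ribosomes, load tRNAs and make nucleotides, and in muscle it is induced when a muscle is loaded. Ribosome building starts in the nucleolus, where RNA polymerase I makes the rRNA precursor, small nucleolar RNPs modify it, and separate sets of assembly factors turn it into the small and the large subunit.

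Levels here are normalised read values, that is, estimated reads divided by a size factor per library, and a log2 difference is the mean of log2(value + 1) in the Myc libraries minus that in the controls. The libraries held an estimated 14.2 to 18.4 M reads, and 12270 of the 12366 genes in the quadriceps table reached a value of 10 in at least 2 libraries and were tested with limma. The extraction text in the labels speaks of soleus for these libraries too, so the fibre type was examined: Myh4, the fastest myosin heavy chain, made up 76.5% to 98.0% of the summed values of 5 myosin genes in the quadriceps libraries, against at most 4.67% in soleus. The Myc row held 114 in control 1 and 55.7 in control 2, and 86.4 in Myc 1 and 33.6 in Myc 2. Its groups overlapped, and the Myc row therefore did not mark the Myc libraries (log2 difference -0.55, SE 0.56; limma, adjusted p = 0.93). All directions rest on the labels, and the partners Max and Mga, a Max-binding repressor, had log2 differences of 0.16 (SE 0.17) and 0.68 (SE 0.17; limma, adjusted p = 0.94 and 0.44).

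Across the transcriptome the 4 libraries did not sort by label. The median size of a gene's difference was 0.26 on the log2 scale between the 2 controls and 0.27 between the 2 Myc libraries. Between a single Myc and a single control library it was 0.28 for Myc 1 against control 1, 0.34 for Myc 1 against control 2, 0.28 for Myc 2 against control 1 and 0.24 for Myc 2 against control 2. The closest pair of all was thus a Myc library and a control, and the farthest was a Myc library and a control as well. A difference of at least 2-fold was seen for 963 genes between the controls and for 1278 between the Myc libraries. Between the group means, which average 2 libraries and so vary less, it was seen for 461 genes, 121 of them higher and 340 lower in Myc.

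**Figure D1:**
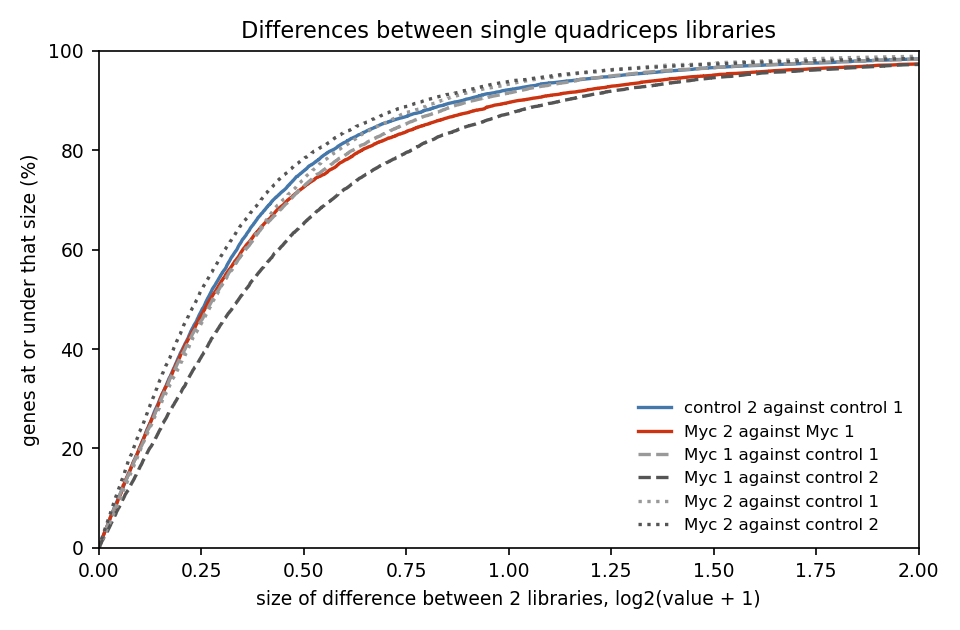
Share of the 12270 tested genes (vertical axis, percent) whose difference between 2 single libraries, in log2(value + 1), was at or under the size on the horizontal axis. The curves within a group (solid) lie among those between groups (dashed and dotted): Myc 2 against control 2 had the smallest differences, with a median of 0.24, and Myc 1 against control 2 the largest, with a median of 0.34.

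A single gene, AI506816, passed the test over all genes, 0.00815% of those tested. At an unadjusted p under 0.05, limma had 487 genes higher (3.97%) and 275 lower (2.24%) in Myc. The higher genes were 63.9% of these 762, and 82.5% (697 against 148) when libraries were scaled by their total instead, a scaling that moved the median of all genes by 0.062. Both Myc libraries lay above both controls for 2245 genes (18.3%) and below both for 2071 (16.9%). A stricter rule asks that the gap between the groups be wider than the spread inside either group, and such groups are said here to stand clear. That held for 845 genes higher in Myc (6.89%) and 591 lower (4.82%), of which 59 and 50 differed by at least 2-fold. With 2 libraries against 2, an exact permutation test of one gene cannot give a p below 0.333. A fit over all 11 libraries, which takes its spread from soleus as well, called 77 genes higher (0.643%) and 17 lower (0.142%) of 11971 tested in quadriceps. It treated all 11 libraries as independent, with no term for a mouse that may have given both muscles.

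The gene that passed was AI506816, listed by RefSeq as a long noncoding RNA. It held 72.0 and 68.2 in the controls and 525 and 553 in the Myc libraries. The libraries of each group nearly coincided, and the groups lay far apart (log2 difference 2.92, SE 0.21, 95% interval 2.45 to 3.40; limma, adjusted p = 0.011). The call was lost when libraries were scaled by their total (adjusted p = 0.095) or when no mean-variance trend was fitted (adjusted p = 0.67).

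The next 11 genes by size of clear difference upward, with a mean of at least 100, had varied roles. Pdxp, a phosphatase that removes the phosphate from the active form of vitamin B6, held 56.9 and 71.5 in the controls and 349 and 332 in Myc. Shmt1, which moves a one-carbon unit from serine to folate, held 75.4 and 65.7 against 360 and 250. Prmt3, an arginine methyltransferase that modifies a ribosomal protein of the small subunit, held 353 and 285 against 961 and 921. In each case the higher control lay well under the lower Myc library, with log2 differences of 2.40 (SE 0.24), 2.08 (SE 0.27) and 1.57 (SE 0.18), and none passed (limma, adjusted p = 0.082, 0.19 and 0.11). Ppan, a large-subunit assembly factor, held 91.7 and 77.3 in the controls and 281 and 220 in Myc. Timm10, a chaperone of protein import between the mitochondrial membranes, held 190 and 223 against 509 and 683. Aldh18a1, the enzyme that starts proline synthesis from glutamate, held 76.6 and 65.7 against 160 and 231. These differences were 1.55, 1.51 and 1.43 on the log2 scale, and again the groups did not overlap. The nucleolar GTPase Gnl3 held 436 and 332 in the controls and 1042 and 946 in Myc, and the guanine nucleotide enzyme Impdh2 held 362 and 272 against 882 and 694. The H/ACA RNP proteins Nhp2 and Gar1 had log2 differences of 1.39 (SE 0.18) and 1.29 (SE 0.26), and Zfp783, which RefSeq lists as noncoding, 1.55 (SE 0.35). All 12 of these genes stood clear by the rule that chose them, so their separation is a description. The fit over all 11 libraries called AI506816 and 10 of the others, and not Zfp783 (limma, adjusted p = 0.22). The limma adjusted p-values of those called ran from 0.0034 for Gnl3 to 0.047 for Aldh18a1. Of all genes it tested, that fit called 0.643% higher. It takes the difference from the same quadriceps libraries by which the 12 genes were picked, and only its spread draws on soleus. These calls are therefore no separate test, and the same holds below for other genes picked by their quadriceps values.

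**Figure D2:**
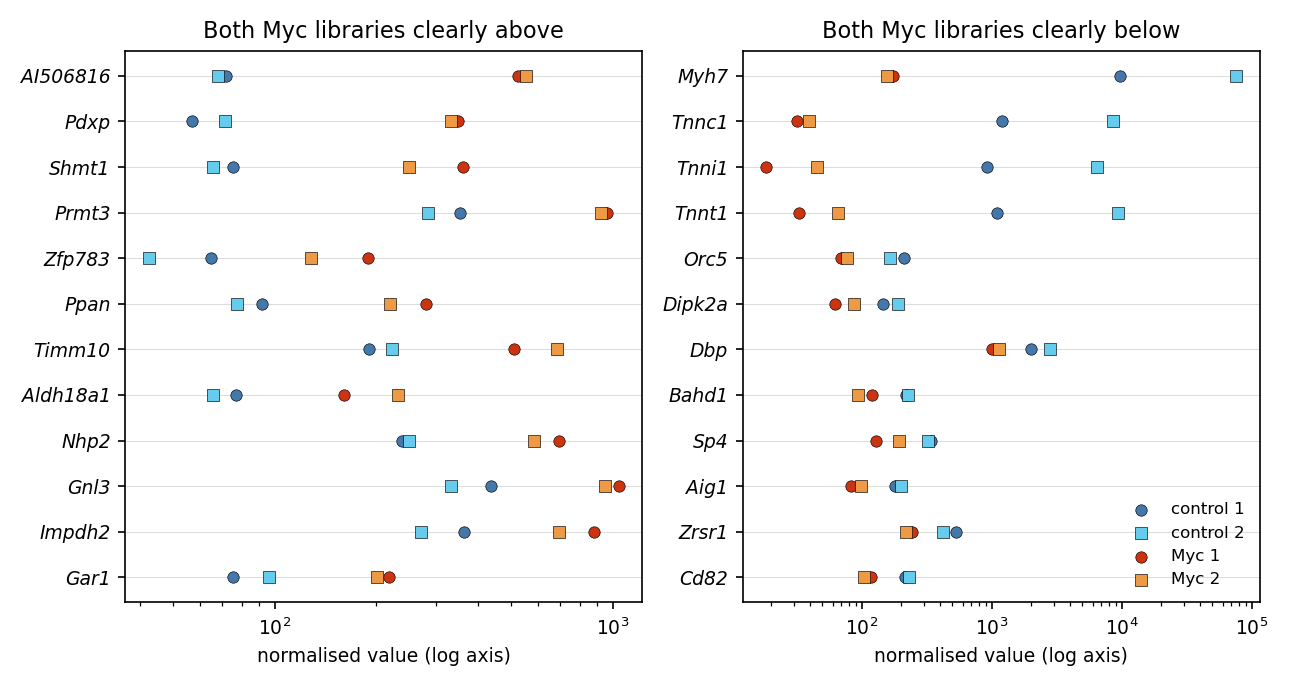
Normalised value (log axis) in each of the 4 libraries for the 12 genes of largest difference in each direction among genes whose groups stood clear and whose mean was at least 100, ordered by the size of the log2 difference. AI506816 at the top left shows libraries of a group nearly coinciding, while Myh7, Tnnc1, Tnni1 and Tnnt1 at the top right show a wide gap between the 2 controls beside the wider gap to Myc.

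Because Myc binds CACGTG, the RefSeq promoter windows of these genes, 250 bases before to 50 after each gene's start in GRCm38.p6, were searched for those letters, which read alike on both strands. The first window listed for a gene was used, and 9778 of the tested genes had one. The motif was found in 7.24% of all 27025 windows and in 10.6% of those of tested genes. It was found in 17.5% of 681 windows of genes standing clear and higher, and in 8.3% of 482 of genes standing clear and lower. Of the 12 genes above, 5 held it, and of the 12 genes of largest clear difference downward, 0 did. The windows of those 5 genes and of AI506816, the gene that passed the test, are printed below 5′ to 3′ on the gene's strand, with CACGTG in capitals. A match is a string of letters and not a measured binding site.
Prmt3, chr7:49778108-49778407, plus strand: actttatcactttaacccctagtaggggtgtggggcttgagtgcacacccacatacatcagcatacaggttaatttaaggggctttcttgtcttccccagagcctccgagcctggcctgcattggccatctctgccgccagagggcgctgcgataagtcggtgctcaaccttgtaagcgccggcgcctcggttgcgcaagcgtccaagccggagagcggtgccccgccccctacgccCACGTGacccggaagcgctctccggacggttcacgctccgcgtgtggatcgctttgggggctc
Timm10, chr2:84826771-84827070, plus strand: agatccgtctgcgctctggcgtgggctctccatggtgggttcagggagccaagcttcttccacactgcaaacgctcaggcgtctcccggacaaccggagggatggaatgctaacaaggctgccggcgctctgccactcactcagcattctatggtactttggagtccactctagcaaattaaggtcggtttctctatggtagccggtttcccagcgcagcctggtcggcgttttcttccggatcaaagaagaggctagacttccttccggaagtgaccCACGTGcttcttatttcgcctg
Aldh18a1, chr19:40588414-40588713, minus strand: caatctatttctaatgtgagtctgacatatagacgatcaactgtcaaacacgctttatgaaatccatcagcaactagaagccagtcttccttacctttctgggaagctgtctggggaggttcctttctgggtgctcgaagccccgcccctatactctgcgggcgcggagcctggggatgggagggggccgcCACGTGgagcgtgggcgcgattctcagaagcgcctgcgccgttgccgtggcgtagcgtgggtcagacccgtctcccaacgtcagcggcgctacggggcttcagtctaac
Impdh2, chr9:108560186-108560485, plus strand: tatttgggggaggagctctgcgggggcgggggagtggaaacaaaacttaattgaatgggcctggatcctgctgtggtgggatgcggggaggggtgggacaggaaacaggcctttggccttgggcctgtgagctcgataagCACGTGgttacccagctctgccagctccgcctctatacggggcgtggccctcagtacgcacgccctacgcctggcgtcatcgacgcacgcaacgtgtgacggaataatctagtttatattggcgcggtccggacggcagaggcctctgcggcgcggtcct
Zfp783, chr6:47942925-47943224, plus strand: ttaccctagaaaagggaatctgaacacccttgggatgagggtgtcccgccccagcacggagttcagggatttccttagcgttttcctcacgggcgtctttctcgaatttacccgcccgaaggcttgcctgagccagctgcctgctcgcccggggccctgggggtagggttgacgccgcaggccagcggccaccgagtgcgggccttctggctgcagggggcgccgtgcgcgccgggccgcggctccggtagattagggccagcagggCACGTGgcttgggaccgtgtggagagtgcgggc
AI506816, chr5:23712618-23712917, minus strand: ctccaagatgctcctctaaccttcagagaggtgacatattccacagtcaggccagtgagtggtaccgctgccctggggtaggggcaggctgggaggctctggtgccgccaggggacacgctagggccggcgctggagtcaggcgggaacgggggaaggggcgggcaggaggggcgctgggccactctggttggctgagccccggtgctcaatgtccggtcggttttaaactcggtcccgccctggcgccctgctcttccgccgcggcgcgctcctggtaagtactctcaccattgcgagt

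The motif began 13, 59 and 110 bases before the start of Prmt3, Aldh18a1 and Impdh2, and 17 and 28 bases after the start of Zfp783 and Timm10. The window of AI506816 held none.

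Genes for building ribosomes and translating mRNA lay above control almost throughout. Over 10 lists (factors of either subunit, small nucleolar RNPs, nucleolar proteins, polymerase I, ribosomal proteins, initiation, elongation, tRNA synthetases and RNA modification) 295 of 309 tested genes had a positive log2 difference, with a median of 0.39, where 45.8% of all tested genes did, with a median of -0.03. Both Myc libraries exceeded both controls for 238 of the 309 and lay below both for 3, against 18.3% and 16.9% of all genes. The groups stood clear upward for 134 and downward for 1, against 6.89% and 4.82% of all genes. None passed the test over all genes in limma. At an unadjusted p under 0.05, limma had 125 higher and 0 lower, against 3.97% and 2.24% of all genes. The fit over all 11 libraries called 38 of them, all higher, among its 77 higher genes and 0 among its 17 lower ones. Those 77 and 17 were 0.643% and 0.142% of all genes it tested.

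Among factors of the small subunit, 38 of 39 genes lay above control, with a median log2 difference of 0.46. Of the 39, 21 stood clear upward, against 6.89% of all genes. Tsr1, a maturation factor of the 40S particle, held 683 and 492 in the controls and 1571 and 1261 in Myc (1.28, SE 0.21). Rrp12, an export factor of pre-ribosomes, held 866 and 743 against 1687 and 1641 (1.05, SE 0.17). Heatr1, which links the processome to rRNA transcription, held 317 and 234 against 499 and 483 (0.85, SE 0.20). The Myc libraries lay above the controls for all 3, and the fit over all 11 libraries called Tsr1 and Rrp12 but not Heatr1 (limma, adjusted p = 0.0098, 0.0034 and 0.10). For the large subunit, 41 of 42 genes lay above control, with a median of 0.55, and 22 stood clear upward, set against the same 6.89%. Nop2, an rRNA methyltransferase, held 357 and 288 in the controls and 733 and 659 in Myc, and Rpf2, which helps to place the 5S particle, held 186 and 164 against 378 and 387. The fit that includes soleus called both (in turn, adjusted p = 0.0098 and 0.014 by limma).

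The nucleolus itself showed the same direction. All 16 core proteins of small nucleolar RNPs lay above control, with a median of 0.66. Of the 16, 14 did not overlap upward, against 18.3% of all genes. Dkc1, the pseudouridine synthase of these particles, held 434 and 378 in the controls and 755 and 803 in Myc (0.94, SE 0.17). Fbl, the methyltransferase of the C/D particles, held 87.0 and 113 against 153 and 216, with a spread inside Myc wider than the gap between the groups. Of 14 abundant nucleolar proteins all lay above control, with a median of 0.71. Npm1 held 737 and 704 in the controls and 1741 and 1345 in Myc. Nucleolin, Ncl, held 3057 and 2597 against 6416 and 4913, and the helicase Ddx21 held 1148 and 911 against 2305 and 1759. In each of these 3 genes Myc 1 was the highest of the 4 libraries. Genes that host small nucleolar RNAs had a higher median, 0.76 over 17 genes, but at low levels: Gas5 held 26.7 and 24.1 against 64.8 and 48.4, and Snhg14 went the other way, with 51.4 and 48.3 against 19.9 and 27.5. Of the 17, 4 stood clear upward, against 6.89% of all genes.

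RNA polymerase I genes lay above control in 13 of 14 cases (median 0.41), with the large subunits Polr1a at 902 and 774 against 1257 and 1350, and Polr1b at 346 and 287 against 571 and 500. Polymerase III genes, which serve tRNA and 5S rRNA, differed less. Of 22, 17 lay above control, with a median of 0.19, and 12 did not overlap upward, against 18.3% of all genes. Polr3d held 337 and 346 in the controls and 499 and 505 in Myc, with close replicates on both sides. The row of 18S rRNA itself, Rn18s, held 513584 and 659877 in the controls and 326327 and 288483 in Myc (log2 difference -0.92, SE 0.32; limma, adjusted p = 0.65). That row lay below control while the genes for making rRNA lay above; the labels name total RNA as the molecule, and the depletion or selection that left these reads is not given in the sources used here.

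**Figure D3:**
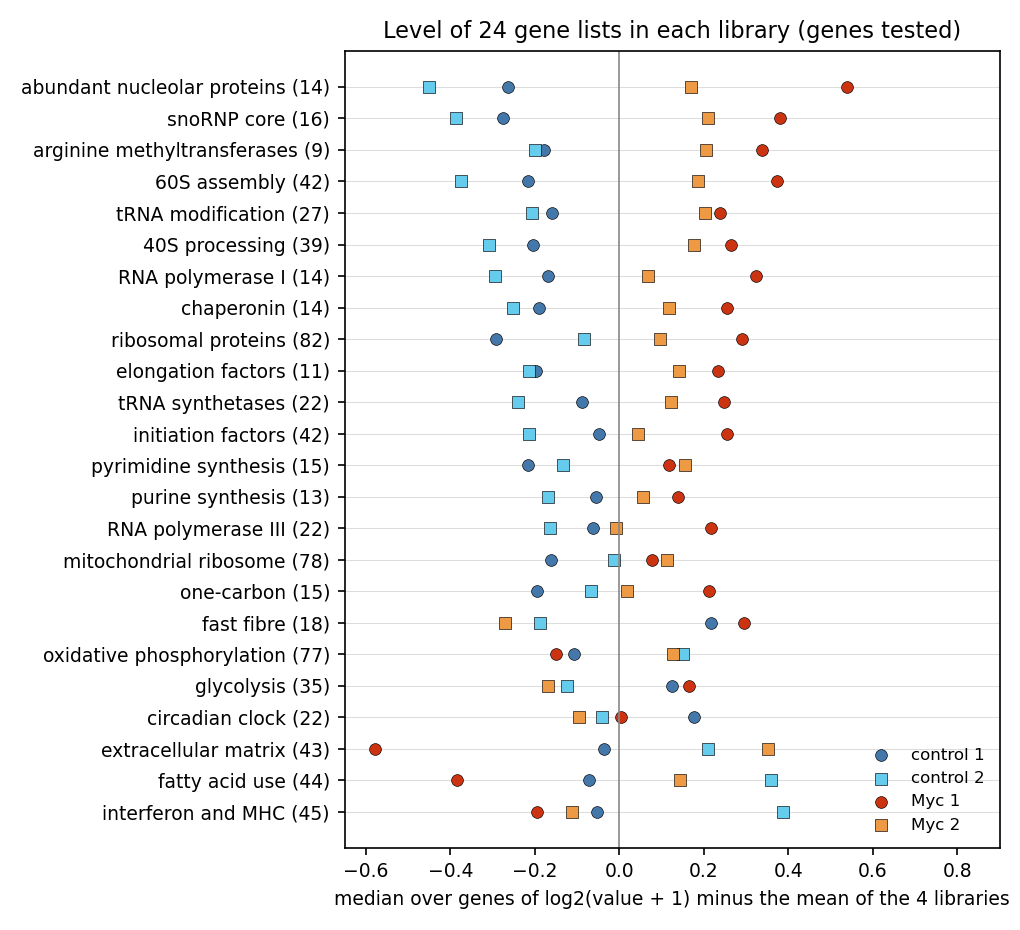
Level of 24 gene lists in each library, as the median over the list's tested genes (their number in brackets) of log2(value + 1) minus that gene's mean over the 4 libraries. In the lists from abundant nucleolar proteins down to purine synthesis both Myc libraries lie to the right of both controls, whereas for extracellular matrix, fatty acid use and oxidative phosphorylation the libraries do not sort by label.

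Ribosomal proteins lay above control in 79 of 82 genes, with a median of 0.36. Of the 82, 62 had groups that did not overlap upward and 28 stood clear upward, against 18.3% and 6.89% of all genes. Rpl32 held 1394 and 1698 in the controls and 2778 and 2427 in Myc (log2 difference 0.75, SE 0.19). These genes have many processed copies, so the split of their reads is uncertain. The paralogs Rpl3 and Rpl3l, of which the second is the form typical of adult striated muscle, gave 0.25 (SE 0.29) and -0.03 (SE 0.19). The level of the list was -0.29 in control 1, -0.08 in control 2, 0.29 in Myc 1 and 0.10 in Myc 2, so control 2 and Myc 2 stood close together.

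Factors that run translation followed. Initiation factors lay above control in 36 of 42 genes (median 0.30). The helicase Eif4a1 held 671 and 733 in the controls and 1363 and 1198 in Myc, and Eif3d, a subunit of the scaffold eIF3, held 833 and 727 against 1439 and 1373. Both stood clear, with log2 differences of 0.86 (SE 0.16) and 0.85 (SE 0.16). All 11 elongation and termination genes lay above control (median 0.35), led by Eef1e1, an auxiliary protein of the synthetase complex, with 173 and 192 against 404 and 408. The elongation factor Eef2 held 29986 and 27561 against 43392 and 36726. Cytosolic tRNA synthetases lay above control in 21 of 22 genes (median 0.31), and 20 did not overlap upward, against 18.3% of all genes. Vars, which loads valine, held 694 and 612 against 1155 and 1079. Enzymes that modify tRNA and rRNA had a median of 0.46 with 26 of 27 above control. Mettl1 held 97.5 and 87.3 in the controls and 215 and 223 in Myc, while its partner Wdr4 in the tRNA methyltransferase held 152 and 125 against 249 and 202. Mitochondrial ribosomal proteins differed least of these groups, with 65 of 78 above control and a median of 0.16. In the fit that includes soleus 2 of the 78, Mrps18b and Mrps2, passed upward (adjusted p = 0.029 and 0.039 by limma), where 0.643% of all genes did.

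Metabolic lists differed from control in part. Among 13 purine synthesis genes, 8 lay above control and 5 stood clear upward, where 45.8% and 6.89% of all genes did. Atic, which closes the purine ring, held 619 and 466 in the controls and 1209 and 1230 in Myc (1.18, SE 0.19). Among 15 pyrimidine genes, 10 lay above control and 5 stood clear upward, set against the same shares. Ctps, which makes CTP, held 270 and 259 against 558 and 619, and Cad, the enzyme of the first pyrimidine steps, held 138 and 122 against 242 and 300. The fit over all 11 libraries called these 3 (limma, adjusted p = 0.0034 for Atic and for Ctps and 0.020 for Cad). In all it called 2 of the 13 purine and 2 of the 15 pyrimidine genes higher, where it called 0.643% of all genes higher. Dctd, a dCMP deaminase, sat near the low end of the table with 18.6 and 11.6 against 33.9 and 53.3. In one-carbon metabolism 9 of 15 genes lay above control. Mthfd1, the cytosolic folate enzyme, held 667 and 612 against 1112 and 1139. The mitochondrial Shmt2 differed in the same direction but by less, with 470 and 480 against 540 and 687. Of 11 polyamine genes only 3 lay above control. Srm, spermidine synthase, held 114 and 112 against 190 and 219, and Odc1, the first enzyme of the pathway and a well-known Myc target, held 4098 and 4192 against 5344 and 3315, so its Myc libraries lay on both sides of the controls. The polyamine median of -0.16 became 0.14 without Myc 2.

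The chaperonin, which folds actin and tubulin among others, had 12 of 14 genes above control (median 0.39). Cct5 held 2096 and 1553 in the controls and 3665 and 3159 in Myc, and the subunits Cct2, Cct4 and Cct6a stood clear as well. Heat shock genes at large had a median near 0, with 18 of 37 above control, although the mitochondrial chaperonin Hspd1 held 3138 and 2950 against 4642 and 4798. Arginine methyltransferase genes lay above control in 7 of 9 cases (median 0.55). Besides Prmt3, Wdr77, the partner of Prmt5, held 550 and 444 against 1024 and 1022, and Prmt7 held 738 and 578 against 1136 and 1140. The fit over all 11 libraries called these 3 genes of that list higher, where it called 0.643% of all genes higher. Of the amino acid carriers, Slc7a5, the large neutral amino acid exchanger, held 20.9 and 35.7 against 74.0 and 85.9, yet 11 of 22 genes of the list lay above control and the median was near 0.

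Oxidative phosphorylation, the citric acid cycle and glycolysis had medians of -0.03, -0.02 and -0.06, and each of these became positive when libraries were scaled by their total (0.03, 0.04 and 0.01). Of 77 oxidative phosphorylation genes only Ndufa12, a complex I subunit chosen by the same rule, had both Myc libraries above both controls. That held for 18.3% of all genes. Slc2a4, the insulin-responsive glucose transporter, lay below control, with 11229 and 10503 against 7705 and 8597. Fatty acid genes lay below control in 40 of 44 cases (median -0.25), yet their level was -0.07 in control 1, 0.36 in control 2, -0.38 in Myc 1 and 0.14 in Myc 2. For that list Myc 2 lay above control 1, and 2 of 44 genes stood clear downward, a share near the 4.82% of all genes.

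The largest differences downward were in the contractile genes of slow fibres. Myh7, the slow myosin heavy chain, held 9731 in control 1, 76136 in control 2, 174 in Myc 1 and 156 in Myc 2. Tnnc1, slow troponin C, held 1203 and 8658 against 31.9 and 39.5. Tnni1 and Tnnt1, slow troponins I and T, held 923 and 6412 against 18.5 and 45.4, and 1094 and 9405 against 32.9 and 66.1. In each gene control 2 exceeded control 1 many-fold, and control 1 in turn exceeded both Myc libraries by more. The log2 differences were -7.36 (SE 1.29), -6.47 (SE 1.24), -6.34 (SE 1.32) and -6.07 (SE 1.42), and none passed with the spread of the controls counted (limma, adjusted p = 0.60, 0.62, 0.66 and 0.72). These 4 were among the 17 lower genes of the fit over all 11 libraries (limma, adjusted p = 0.012 to 0.037). That fit takes 1 spread per gene over both muscles, although the spread of these genes was far wider in quadriceps. For Myh7 its SE was 0.79, against 1.29 in quadriceps alone and 0.12 in soleus alone. The calls thus lean on the closer soleus libraries. In bulk muscle, fewer slow fibres in the piece sampled and less slow-gene RNA per fibre cannot be told apart.

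All 20 genes of the slow list lay below control (median -2.90), but their patterns differed over the libraries. The calcium pump Atp2a2 and slow tropomyosin Tpm3 followed Myh7, with 5989 and 36717 against 812 and 1249, and 2155 and 14517 against 257 and 369. Sln, which inhibits the calcium pump, held 90.5 and 636 against 20.6 and 10.9. For other members Myc 2 lay above control 1: Myoz2, a Z-disc protein, held 735 and 6245 against 265 and 1212, Csrp3 held 360 and 2670 against 84.3 and 775, and Ankrd2 held 998 and 6506 against 477 and 1998. In all, 12 of the 20 did not overlap and 5 stood clear, against 16.9% and 4.82% of all genes. Myot, another Z-disc protein, differed little, at 26588 and 23537 against 23202 and 23475.

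The faster myosins did not follow the label. Myh2, the heavy chain of fast oxidative fibres, held 7752 in control 1, 70429 in control 2, 5516 in Myc 1 and 42229 in Myc 2, so it was high in the second library of each group. Myh1, of intermediate fast fibres, held 75925, 58791, 17909 and 145236 in the same order, and Myh4 held 1027830, 669597, 1136560 and 717849. Within these 5 myosin genes, of which Myh7b is the last, Myh7 took 0.868% and 8.70% in the controls, and 0.0150% and 0.0172% in Myc. Myh2 took 0.691% and 8.05% in the controls, and 0.476% and 4.66% in Myc. The shares are of normalised values and not corrected for transcript length. Myc 1 was thus nearly pure in Myh4 (98.0%) and control 1 close to it (91.7%), whereas control 2 (76.5%) and Myc 2 (79.3%) held a more mixed set of myosins. Fast-fibre genes as a list had a median of 0.03. Of these 18 genes 0 separated the groups, where 18.3% of all genes did so upward and 16.9% downward.

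**Figure D4:**
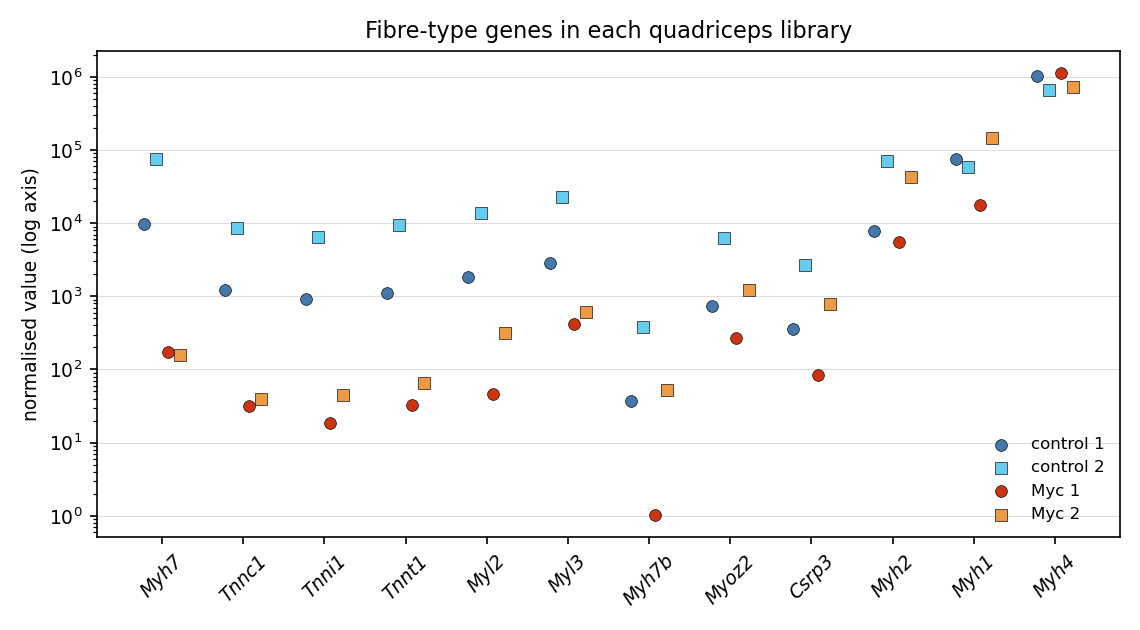
Normalised value (log axis) of 9 slow-fibre genes on the left and the fast myosins Myh2, Myh1 and Myh4 on the right in each of the 4 quadriceps libraries. Myh7 and the slow troponins lie far lower in both Myc libraries (Myh7 at 174 and 156), while Myh2 is high in control 2 and Myc 2 and low in control 1 and Myc 1.

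Some regulators lay below control too. Prox1, a transcription factor of slow fibres, held 59.2 and 176 in the controls and 18.5 and 29.6 in Myc, and Fhl2, a LIM protein abundant in heart, held 20.9 and 66.5 against 5.14 and 6.91 (log2 differences -2.08, SE 0.57, and -2.46, SE 0.82). Tead4, a transcription factor of myogenesis, and Hdac9, a deacetylase that restrains Mef2 factors, held 106 and 90.6 against 49.4 and 19.7, and 61.5 and 158 against 22.6 and 40.5. Of 21 neuromuscular junction genes, 9 had groups that did not overlap, all lower in Myc, and 1 stood clear, where 16.9% and 4.82% of all genes did so downward; the count standing clear was thus at the background.

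The 591 genes standing clear and lower had a median log2 difference of -0.40, and 50 of them differed by at least 2-fold. Orc5, a subunit of the origin recognition complex, held 211 and 165 in the controls and 68.9 and 77.0 in Myc (-1.35, SE 0.27). Cited2, a transcriptional cofactor, held 1293 and 1243 against 734 and 650, and Cd82, a tetraspanin, held 215 and 232 against 118 and 104. Replicates of these genes lay close together, and none passed (limma, adjusted p = 0.34, 0.33 and 0.38). Aig1, a membrane hydrolase of fatty acid esters, held 180 and 202 against 82.3 and 98.7. Zrsr1, an imprinted relative of a splicing factor, held 528 and 423 against 243 and 218. Dipk2a had a log2 difference of -1.17, Bahd1, a heterochromatin protein, one of -1.08, and Sp4, a zinc-finger transcription factor, one of -1.07. Orc5, Cited2, Aig1 and Zrsr1 were among the 17 lower genes of the fit over all 11 libraries.

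Some clock output genes lay below control as well. Dbp, which the clock drives directly, held 2001 and 2801 in the controls and 1013 and 1148 in Myc (-1.13, SE 0.21; limma, adjusted p = 0.33). Nr1d1, a repressor in the clock loop, held 1362 and 1444 against 753 and 943, and Per2 held 441 and 400 against 206 and 316. Of 22 clock genes, 10 had groups that did not overlap and lower in Myc and 2 higher, against 16.9% and 18.3% of all genes, while the core genes Per1, Clock and Cry1 had log2 differences of 0.02, 0.16 and 0.12. No time of day is given for the samples in the sources used here.

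Interferon and antigen presentation genes lay below control in 38 of 45 cases (median -0.29), with 11 not overlapping downward and 6 standing clear, against 16.9% and 4.82% of all genes. Ifit3 held 61.8 and 85.8 in the controls and 34.0 and 32.2 in Myc, and Stat2, which carries the interferon signal, held 94.0 and 101 against 61.7 and 49.3. Gbp6, an interferon-induced GTPase, held 139 and 334 against 61.2 and 85.1. B2m, the light chain of MHC class I, gave 896 and 1534 against 1047 and 1018, and its groups overlapped. Markers of macrophages, cells that also use such genes, lay below control in 11 of 12 genes with summed values of 1357 and 2979 in the controls and 912 and 2256 in Myc, and none of the 12 was at 0 in a library. Their part in the interferon result was not tested.

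Markers of cells outside the fibre differed between libraries more than between groups. Tendon markers summed to 4767 and 2321 in the controls, 515 in Myc 1 and 4604 in Myc 2, so a single Myc library stood low. Fmod, a collagen-binding proteoglycan of tendon, held 1913, 549, 35.0 and 1692 in that order, and Tnmd, tenomodulin, held 128, 40.7, 4.11 and 112. Chad, another cartilage and tendon matrix protein, was at 0 in Myc 1 and between 71.5 and 164 in the others. All 14 tendon markers lay below control on average (median -1.47), and without Myc 1 that median was 0.58. The same library was low in extracellular matrix genes (level -0.58, against -0.04, 0.21 and 0.35 in control 1, control 2 and Myc 2), and the median of that list, -0.21, was 0.24 without it. Adipocyte markers summed to 24243 and 47797 in the controls and 42370 and 11324 in Myc. Lymphocyte markers were not among the genes of the table. Fibre markers such as Acta1 and Ckm differed by -0.12 and 0.02, and the summed fibre list lay between 1270883 and 1556289 in the 4 libraries. Tendon, macrophage and adipocyte levels moved with single libraries. The tendon, macrophage, matrix and interferon lists were each lowest in Myc 1. Adipocyte markers did not follow the fatty acid list: their level was 0.26 in Myc 1 and -0.68 in Myc 2, against -0.38 and 0.14 for that list. The part of these cells in the matrix, fatty acid and interferon results was not tested.

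**Figure D5:**
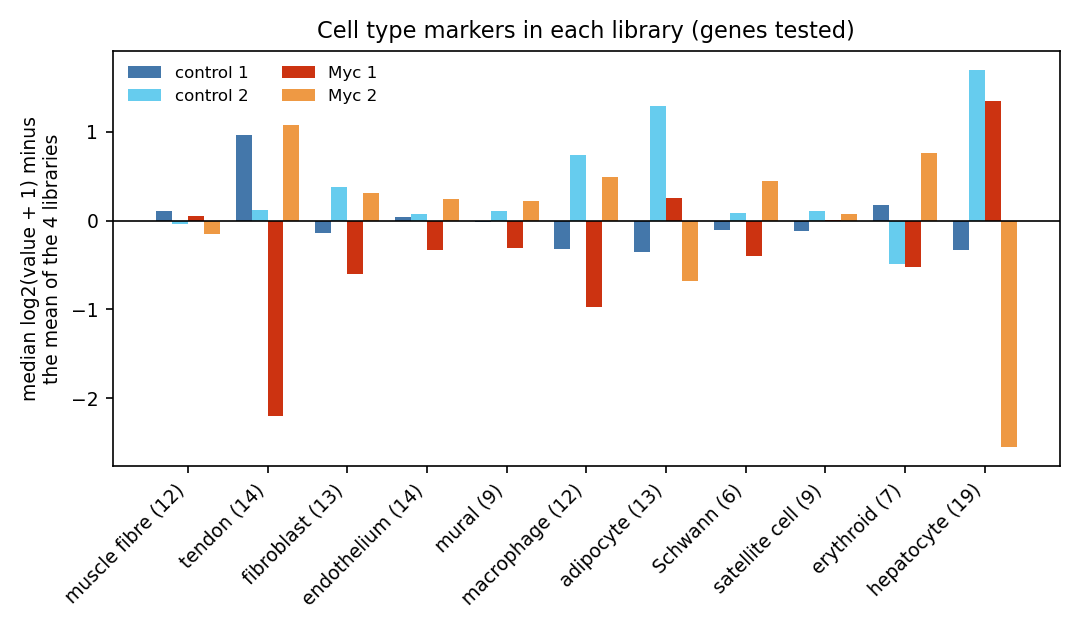
Level of cell type marker lists in each library, as the median over tested markers (their number in brackets) of log2(value + 1) minus the mean over the 4 libraries; bars start at 0. Myc 1 stands at -2.20 for tendon and Myc 2 at -2.56 for hepatocyte genes, so these lists sort by library and not by label.

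Genes of the liver were a further axis. A list of 19 hepatocyte genes, added after the values were seen, summed to 1046 in control 1, 3988 in control 2, 3558 in Myc 1 and 184 in Myc 2. Albumin, Alb, held 388, 1440, 1555 and 80.9 in that order. The order of the libraries differed from that for tendon and for slow fibres, and the groups overlapped for all 19. These genes belong to families of near-identical copies in part (Serpina1, Mup), so single rows are uncertain.

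In soleus the same labels were compared in 3 control and 4 Myc libraries. The titles number the libraries of both muscles alike, so some may come from the same mice. The fit treated all 11 libraries as independent, and the intervals below leave out any such pairing. Set beside it, the log2 differences of several genes named here were smaller in quadriceps. The medians of the small nucleolar RNP and nucleolar protein lists were 0.66 and 0.71 in quadriceps and 1.11 and 1.20 in soleus. The log2 difference of Gnl3 was 1.38 in quadriceps and 2.37 in soleus, that of Dkc1 0.94 and 2.09, that of Heatr1 0.85 and 2.15, and that of Dctd 1.47 and 4.52. The difference between muscles, with intervals not adjusted over genes, was -0.99 for Gnl3 (95% interval -1.46 to -0.52), -1.14 for Dkc1 (-1.62 to -0.67), -1.30 for Heatr1 (-1.89 to -0.72) and -3.05 for Dctd (-4.59 to -1.51). Timm10 stood at 1.51 and 1.36, with an interval of the difference from -0.46 to 0.76. The interval also took in both signs for Npm1 (1.09 and 1.20), Nop2 (1.11 and 1.25), Ppan (1.55 and 1.72) and Tsr1 (1.28 and 1.53). Slow-fibre genes had the larger size of difference in quadriceps, with a list median of -2.90 there and -0.08 in soleus. Myh7 differed by 0.04 in soleus (SE 0.12) and by -7.36 in quadriceps. Its difference between muscles was -7.40 (95% interval -9.72 to -5.08), from 1 spread over both muscles. For 0 of 11971 genes did the muscles differ after adjustment in limma, and 381 had an unadjusted p under 0.05. For that test the adjusted p was 0.39 for Myh7, Gnl3, Dkc1 and Heatr1 and 0.53 for Dctd.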

How the data were processed

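RNA from mouse quadriceps was sequenced in 4 libraries. For each gene the authors deposited a signal that appears to be reads over a library's size factor. That reading comes from the values: a step of 0.831 to 1.16 per read makes 90.9% to 92.4% of low values whole multiples within 0.02. Per the submitters' processing notes STAR 2.7.8a, Partek and DESeq2 were used, with no order given, and both mm10 and mm39 are named, so coordinates are given only for RefSeq windows of GRCm38.p6. Of the 12366 symbols, 12359 matched RefSeq.

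As this signal is no count, log2(value + 1) was fitted with limma 3.58.1 (R 4.3.3), using its trend and robust options (statmod 1.5.0), for genes of at least 10 in 2 libraries, with Benjamini-Hochberg adjustment at 0.05 over all tested genes. The plus 1 understates differences of low genes. The fit was tested on simulated data. Replicates differed by more than counting error (median chi-square per gene 3.99 for the controls and 4.31 for Myc), so each library counted once.

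The comparison, the gene lists and the tests were chosen with earlier results of these data known. Genes were named by rule: Myc; called genes; the 12 largest differences in each direction among genes that stand clear, with a mean of at least 100 and no predicted genes; up to 4 per list with a mean of at least 20 whose groups do not overlap; the 8 genes that differ most inside each group; and Acta1, Ckm, Myh1, Myh2, Myh4 and Myh7. Other genes named (among them Rn18s, Odc1, Rpl3, Rpl3l, Fhl2, Cited2, B2m, Alb, Tnmd, Chad and the further members of the slow and clock lists) were picked after their values were seen. Alternatives were other scalings (library size, TMM), filters, pseudocounts (0.5 and 10), moderation, limma-voom on estimated reads, a replicate block, the fit over all 11 libraries and leaving out each library.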

Additional observations from a re-analysis of the deposited data

How the results depend on the processing

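The count of called genes, 1, was 0 with library-size scaling and 0 with no trend, 4 with the replicate block and 94 in the fit over all 11 libraries. Leaving out a library gave 3 to 137 calls: 7 without control 1, 3 without control 2, 10 without Myc 1 and 137 (46 higher, 91 lower) without Myc 2; the lone library left in a group is then assumed to vary like the other group. AI506816 passed under every alternative except library-size scaling (adjusted p = 0.095) and no trend (adjusted p = 0.67), with limma adjusted p-values of 6.9e-06 to 0.044 in the others. Genes at an unadjusted p under 0.05 and higher in Myc numbered 763 with the block and 312 to 562 with a library left out, the lowest without control 2. Lower genes numbered 148 with library-size scaling, 742 with the block, 501 in the fit over all 11 libraries, and 146 (without control 2) to 859 (without Myc 2). Genes standing clear numbered 2031 to 2245 higher and 1879 to 2523 lower with a library left out, where a single library has no spread of its own, and 376 lower with library-size scaling. The log2 difference of the Myc row ranged from -1.22 to 0.12 with a library left out, and its sign turned without Myc 2 (0.12). The rule of clear groups was not run for alternatives that change only the test.

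No label ties libraries of the same number, and their deviations from the group means correlated at 0.144 across genes, so the replicate block was not preferred. Some lists did shift alike: library 2 minus library 1 had a median of 0.46 in the controls and 0.51 in Myc for fatty acid genes, and -0.42 and -0.56 for fast-fibre genes. Others shifted in opposite ways, with -0.74 and 3.27 for tendon markers and 1.79 and -0.73 for adipocyte markers. For 25 named genes followed, 334 alternatives kept the side of the threshold, 38 passed it, 2 lost it and 1 changed sign. Over 51 lists, 66 of 765 medians moved by more than the spread between replicates, 52 of them with a library left out, and 49 changed sign, 34 of them with a library left out; the medians of the 10 protein-making lists stayed above 0 under every alternative run. With 2 libraries a side and 14.2 to 18.4 M estimated reads, replicates differed by more than counting error for the median gene. How far depth limits what can be told apart was not tested.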

Other observations

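Some genes of the Hoxd cluster, which give limb tissue its position along the body, separated a single library. Hoxd8 held 311 in control 1, 208 in control 2, 1191 in Myc 1 and 168 in Myc 2. Hoxd9 held 74.3, 95.6, 555 and 48.4 in the same order, and Hoxd10 held 11.6, 9.97, 76.1 and 12.8. Myc 1 was high in all 3, and it is also the library low in tendon markers and highest in the share of Myh4. Hoxa10 and Hoxc10, from other Hox clusters, did not show this: Hoxa10 held 302, 276, 239 and 261, and Hoxc10 held 1702, 1606, 1788 and 1580. All the Hox genes given here were picked after their values were seen, and the remaining members of the clusters are not described.

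The genes that differed most inside a group were named by rule. Between the controls they were slow or oxidative fibre genes (Myh7, Tnnt1, Myh7b, Myh2, Myoz2 and Myl3), the ketone enzyme Bdh1, with 266 in control 1 and 2602 in control 2, and the matrix gene Kera, with 211 and 20.8. Between the Myc libraries they were matrix genes such as Col22a1, with 15.4 in Myc 1 and 430 in Myc 2, and Cilp2, with 3.09 and 206, together with liver serpins such as Serpina3k, with 264 and 9.87, and the slow-type myosin Myh7b, with 1.03 and 52.3.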
